A study of Mus musculus with 2 samples.

Results

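The genes described here are the 94 genes that the authors marked as cell cycle genes, of 28523 genes in their table of all cells. The mark was based on the published list of Tirosh et al., per the file headers, and uses no expression value of these samples. The data are single-cell RNA-seq of liver metastases in female BALB/c mice, 6 to 8 weeks old, taken at day 14 after 4T1 cells were injected into the spleen. 4T1 is a mouse triple-negative breast cancer line. The control cells expressed a scrambled hairpin (shSCR) and the others a hairpin against Zdhhc17 (shZdhhc17), a palmitoyltransferase gene, both from a lentiviral pLKO.1 vector under puromycin selection. Spleens were removed soon after the injection in both groups, metastases of 3 mice were pooled per group, and each group is 1 library. The mice themselves carried no allele or agent that set the groups apart, and no clone is named for either line. The shSCR library held 22860 cells and the shZdhhc17 library 21511, in 17 annotated types besides doublets and unknown cells, with 609 numeric cell barcodes occurring in both. Levels of single genes per cell, type or library were not analysed here. The results below therefore come from the authors' gene flags, their table of neutrophil cluster markers, the cell annotation, and promoter sequence. For cancer cells, which made up 37 initial clusters, and for the types other than neutrophils, no value of a cell cycle gene was analysed here.

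A dividing cell copies its DNA in S phase and separates the copies in mitosis (M), after a second gap phase (G2). Genes for these tasks are transcribed in waves: E2F factors drive many S phase genes late in the first gap phase, and the MuvB complex with B-MYB and FOXM1 drives many G2 and M genes later. In resting cells the DREAM complex holds both sets down, reaching the first through E2F sites and the second through the cell cycle genes homology region (CHR). NF-Y, which binds CCAAT boxes, acts at many of the G2 and M promoters. In the neutrophil lineage, division is a feature of bone marrow precursors and ends before the cell matures.

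The files give 1 mark for all 94 genes. They were divided here into 42 S phase genes and 52 G2 and M genes by a list written from knowledge of the published signature, on which each comparison of the S phase with the G2 and M genes below rests, and into roles from general knowledge. The S phase genes comprise 10 of DNA repair and the replication checkpoint, 10 of histone supply, chromatin and DNA methylation, 9 of the replicative helicase and origin firing, 8 of DNA polymerases, the sliding clamp and its loading, 3 of nucleotide supply and 2 others. The G2 and M genes comprise 12 of spindle and microtubules, 10 of cyclins, kinases and a phosphatase, 9 of kinetochore and centromere, 8 of chromosome structure, 5 kinesins and 8 others. The symbols Pimreg, Jpt1 and Cenpu are in both gene tables without the mark. RefSeq gives Fam64a, Hn1 and Mlf1ip as their older symbols, and none of these is in the tables. With them the list would hold 97 genes. Jpt1, Pimreg and Cenpu are not counted below.

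All 94 genes were among the 21544 genes of the neutrophil table, to which 75.5% of the genes in the full table belong. None of the 94 was among the 1000 most variable genes on which the authors built the principal components and the UMAP, in the full table (3.51% of all genes) or the neutrophil table (4.64%). Genes marked as ribosomal (179) or mitochondrial (13) were not among them either, so that 0 of 286 marked genes and 1000 of 28237 unmarked genes were variable in the full table. In the neutrophil table these counts were 0 of 282 and 1000 of 21262. The file headers do not say whether marked genes were left out before genes were ranked by variability. Of 80 further cell cycle genes on the fixed list, which carry no mark, 1 was variable in the full table (Cdkn1a, which encodes the CDK inhibitor p21) and 3 in the neutrophil table (Cdkn1a, the G1 cyclin gene Ccnd2 and Lin52 of the MuvB complex).

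In neutrophils, 10 of the 94 genes (10.6%) were among the 20 markers that the authors' deposited table lists for each of 9 clusters, against 0.835% of all genes in the neutrophil table. Of these, 8 marked the Early-Stage 2 cluster (8.51% of the 94 genes, against 0.0928% of all genes) and 2 marked NETosis 2 (2.13%, against 0.0928%). They include 3 of the 42 S phase genes and 7 of the 52 G2 and M genes. None of the 94 genes was listed for the other 7 clusters, Early-Stage 1 included. The other 84 genes were in none of the lists. A list of 20 genes does not show that they were equal between clusters, and the lowest marker score (the fold change times a specificity) listed for Early-Stage 2 was 1.12. For Early-Stage 1 the lowest was 2.42, above the 1.95 of Rrm2, the highest score of the 10 genes. A gene scoring as these 10 did would not have reached the Early-Stage 1 list. Its lack of cell cycle genes thus does not show that they were low there. The clusters were made from the same cells, both libraries together, so the values below describe the cluster and test nothing. Each of the 180 listed genes is listed for 1 cluster only. How genes high in several clusters were treated is not given in the labels or file headers.

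The 3 S phase genes all marked Early-Stage 2. Rrm2 encodes the small subunit of ribonucleotide reductase, which makes the deoxynucleotides for DNA synthesis. In the authors' deposited table it had a log2 fold change of 2.19 against all other neutrophils, and its transcript was in 97.0% of the cells of the cluster and in 16.6% of the others. Pcna, the sliding clamp of DNA polymerases, had 1.91, with 96.1% and 17.4% in the authors' deposited table. For Mcm5, a subunit of the MCM helicase that opens the replication origin, the authors' deposited table gives 1.49, with 90.7% and 14.8%. Rrm2 thus had the largest fold change of the marked genes and Mcm5 the lowest share outside the cluster among the 8.

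The promoters of Mcm5 and Pcna are shown because they differ in the motif that is known for S phase genes. Each run is the RefSeq window on GRCm38.p6 from 250 bases before the start of the gene to 50 bases from it, 5′ to 3′ along the gene. Capitals mark E2F words (TTTCCCGC, TTTCGCGC, TTTGCCGC or TTTGGCGC), CHR words (TTTGAA or TTCGAA) and CCAAT boxes, on either strand. The Mcm5 window is chr8:75109259-75109558 (plus strand) and the Pcna window chr2:132253131-132253430 (minus strand).
Mcm5: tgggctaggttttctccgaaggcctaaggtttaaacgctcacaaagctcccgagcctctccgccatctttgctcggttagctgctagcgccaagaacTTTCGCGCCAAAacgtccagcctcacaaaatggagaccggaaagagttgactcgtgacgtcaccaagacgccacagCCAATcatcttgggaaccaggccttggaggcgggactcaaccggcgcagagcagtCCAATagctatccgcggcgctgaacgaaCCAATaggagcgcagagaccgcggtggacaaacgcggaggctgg
Pcna: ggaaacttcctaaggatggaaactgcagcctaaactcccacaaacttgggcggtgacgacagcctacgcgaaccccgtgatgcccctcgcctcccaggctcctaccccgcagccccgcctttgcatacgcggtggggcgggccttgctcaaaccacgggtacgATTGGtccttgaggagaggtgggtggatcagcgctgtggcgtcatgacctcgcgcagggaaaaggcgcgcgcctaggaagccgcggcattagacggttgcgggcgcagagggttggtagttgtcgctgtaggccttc
Mcm5 held an overlapping pair of E2F words, TTTCGCGC and on the other strand TTTGGCGC, with first bases at -153 and -149 relative to the RefSeq start, and 3 CCAAT boxes at -77, -22 and 6. Pcna held no E2F word in this window and 1 CCAAT box at -87. GENCODE M21 places the start of Mcm5 (ENSMUSG00000005410.6, chromosome 8, 75109569 to 75128439) after the end of this window, so the sites lie further upstream of that start. For Pcna the shift runs the other way: GENCODE M21 has the start at 132253314, upstream of the RefSeq start at 132253180. By GENCODE 184 bases of the Pcna window are exon and the CCAAT box lies after the start, so the window covers less sequence upstream of that start than the Mcm5 window does.

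Of the G2 and M genes, 5 marked Early-Stage 2. Chromosome structure genes led them. In the authors' deposited table, Mki67, which encodes the chromosome surface protein Ki-67 used as a stain for dividing cells, had a log2 fold change of 1.97, with its transcript in 98.6% of the cells of the cluster and 22.5% of the others. Top2a, the topoisomerase that untangles replicated DNA, had 1.91 there, with 91.2% and 18.0% in the authors' deposited table. Smc4, a core subunit of condensin, is given in the authors' deposited table with 1.75, 98.5% and 27.3%. Smc4 thus had the highest share outside the cluster of the 8 genes.

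The other 2 act in chromosome segregation. Ube2c is the ubiquitin-conjugating enzyme of the anaphase-promoting complex, which ends mitosis by marking cyclin B and securin for destruction. Its values in the authors' deposited table were 1.54, 80.9% and 17.3%, the lowest share within the cluster of the 8 genes. Birc5 encodes survivin, of the chromosomal passenger complex with Aurora B, and had 1.41, 91.8% and 18.8% in the authors' deposited table. The promoters of Top2a, Ube2c and Birc5 are shown because they range from many of the motifs known for G2 and M genes to none. The windows are chr11:99024140-99024439 (minus strand), chr2:164769679-164769978 (plus strand) and chr11:117848987-117849286 (plus strand).
Top2a: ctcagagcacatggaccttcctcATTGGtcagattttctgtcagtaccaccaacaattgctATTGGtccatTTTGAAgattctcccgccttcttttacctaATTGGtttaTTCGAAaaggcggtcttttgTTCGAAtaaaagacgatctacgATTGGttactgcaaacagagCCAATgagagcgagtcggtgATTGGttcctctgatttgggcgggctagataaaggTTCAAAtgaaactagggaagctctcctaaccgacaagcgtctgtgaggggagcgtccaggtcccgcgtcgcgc
Ube2c: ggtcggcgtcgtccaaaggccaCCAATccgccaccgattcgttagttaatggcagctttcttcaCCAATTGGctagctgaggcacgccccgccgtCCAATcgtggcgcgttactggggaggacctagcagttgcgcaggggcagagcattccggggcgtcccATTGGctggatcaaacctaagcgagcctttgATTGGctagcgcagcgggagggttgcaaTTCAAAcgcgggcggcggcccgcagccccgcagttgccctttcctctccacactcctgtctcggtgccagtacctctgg
Birc5: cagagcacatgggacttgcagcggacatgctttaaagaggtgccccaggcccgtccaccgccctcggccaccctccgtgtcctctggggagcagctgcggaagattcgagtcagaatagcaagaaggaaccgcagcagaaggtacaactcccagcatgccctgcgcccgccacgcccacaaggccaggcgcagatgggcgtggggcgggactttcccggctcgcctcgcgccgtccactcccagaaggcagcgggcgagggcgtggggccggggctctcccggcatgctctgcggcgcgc
Top2a held 4 CHR words, at -179, -140, -120 and -23, among 6 CCAAT boxes. Ube2c held 1 CHR word at -29 and 6 CCAAT boxes, 2 of which overlap as an inverted repeat. GENCODE M21 has the start of Ube2c at 164769898, upstream of the RefSeq start at 164769929, so by GENCODE this CHR word lies after the start. Birc5 held none of the 3 motifs, which says only that these letters are not in this window.

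**Figure D1:**
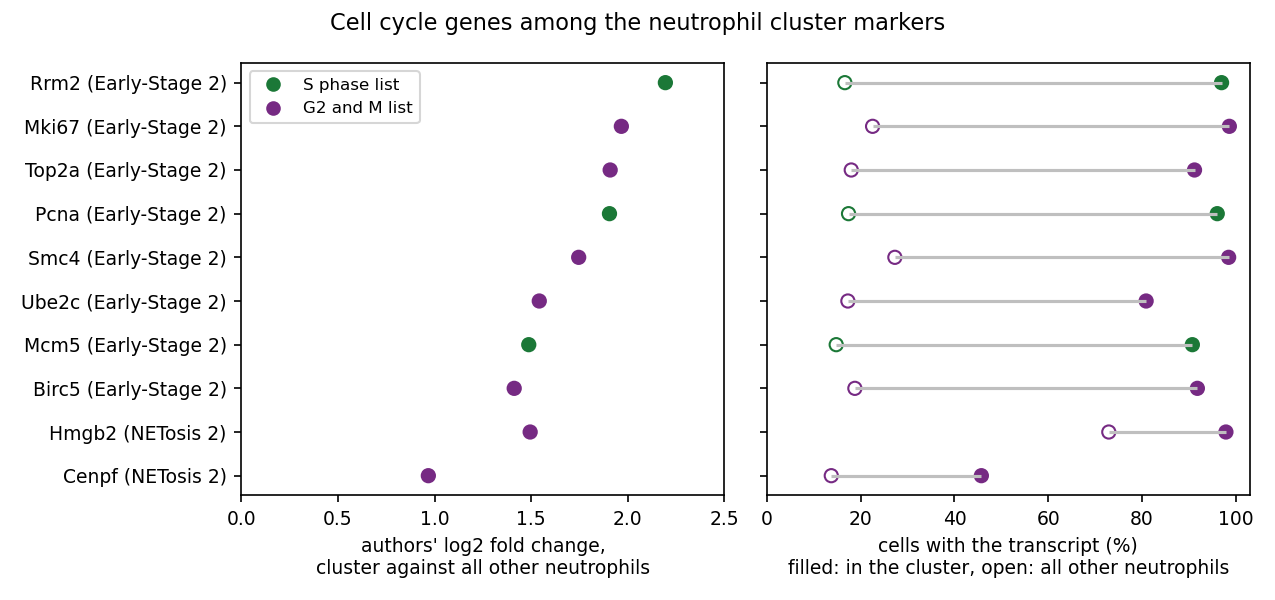
Left, the authors' log2 fold change of a cluster against all other neutrophils for the 10 of the 94 genes that are among the markers. Right, the percent of cells with the transcript in the cluster (filled) and in all other neutrophils (open). Green is the S phase list and purple the G2 and M list. The 8 genes of Early-Stage 2 lie between 1.41 and 2.19, and their shares between 80.9% and 98.6% within the cluster and between 14.8% and 27.3% outside it.

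NETosis 2 had Hmgb2 and Cenpf, both on the G2 and M list. Hmgb2 encodes a chromatin protein that bends DNA. In the authors' deposited table it had a log2 fold change of 1.49, with its transcript in 97.9% of the cells of the cluster and 72.9% of the others. The transcript was thus in most neutrophils, unlike those of the 8 genes above. Cenpf, a kinetochore and nuclear matrix protein gene, had 0.97 there, with 45.7% and 13.7% in the authors' deposited table. The Hmgb2 promoter (chr8:57511593-57511892, plus strand) is shown because it resembles Top2a and Ube2c in its motifs and the gene marked another cluster.
Hmgb2: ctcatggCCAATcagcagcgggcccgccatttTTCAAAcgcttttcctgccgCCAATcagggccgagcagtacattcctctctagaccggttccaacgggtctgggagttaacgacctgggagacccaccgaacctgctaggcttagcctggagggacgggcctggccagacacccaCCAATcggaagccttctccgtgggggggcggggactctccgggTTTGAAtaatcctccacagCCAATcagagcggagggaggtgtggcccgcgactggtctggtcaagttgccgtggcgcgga
It held 2 CHR words, at -218 and -30, and 4 CCAAT boxes, at -243, -198, -73 and -11. As with Mcm5, GENCODE M21 places the start of Hmgb2 (ENSMUSG00000054717.7, chromosome 8, 57511907 to 57515999) after the end of the window. The Cenpf window held 1 CHR word at 2 and CCAAT boxes at -132 and -71.

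The 10 genes lie on 7 chromosomes of GRCm38, per GENCODE M21, and all are protein-coding. On chromosome 2 lie Pcna (132249162 to 132253314) and Ube2c (164769898 to 164778822), on chromosome 11 Top2a (98992943 to 99024189) and Birc5 (117849251 to 117855743), and on chromosome 8 Mcm5 and Hmgb2. Rrm2 is on chromosome 12 (24708241 to 24714146), Mki67 on chromosome 7 (135689784 to 135716361), Smc4 on chromosome 3 (69004738 to 69034623) and Cenpf on chromosome 1 (189640606 to 189688086).

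Of the 80 unmarked cell cycle genes, 79 were in the neutrophil table (98.8%, against 75.5% of all genes). Markers were 6 of the 80 (7.5%, against 0.835% of all genes). Early-Stage 2 had 5 of these markers (6.25% of the 80, against 0.0928% of all genes). In the authors' deposited table these were Pclaf, a PCNA-binding factor (log2 fold change 1.79), the condensin core subunit gene Smc2 (1.54), the phosphatase gene Cdc25a (1.5), the DNA ligase gene Lig1 (1.49) and the cyclin gene Ccna2 (1.41). Their transcripts were in 88.9% to 97.3% of its cells and in 14.1% to 20.7% of the other neutrophils in the authors' deposited table, ranges that overlap those of the marked genes. Marked and unmarked cell cycle genes together were 13 of the 20 markers of Early-Stage 2. The other 7 were Fcnb, Hmgn2, H2afz, Serpinb1a, Dek, Tagln2 and Cebpe, of which Cebpe encodes a transcription factor of late granulocyte precursors and H2afz a histone variant. Cdkn1a, which halts the cycle, marked Hypoxia/Angiogenesis with 2.00 in the authors' deposited table, with 62.7% and 28.1%. None of the 20 Early-Stage 2 markers was among the variable genes of the neutrophil table, and 1 of the 20 for NETosis 2 was. Of all 180 markers, 74 were, from 5 of 20 in each Migration cluster to 20 of 20 in Hypoxia/Angiogenesis among the other 7 clusters.

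Depth differed with the cluster. Early-Stage 2 cells had a median of 13658 UMIs (molecules counted), and all other neutrophils 1825. Early-Stage 1 had more, 18559, NETosis 1 had 8252 and NETosis 2 had 7842. In both libraries Early-Stage 1 and Early-Stage 2 had the highest medians of the 9 clusters, 21152 and 15315.5 in shSCR and 15679 and 11186 in shZdhhc17. A cell with more UMIs shows more genes, so the shares of cells with a transcript are not at equal depth within and outside the cluster. Mitochondrial transcripts moved with the cluster too, with a median of 5.12% of UMIs in Early-Stage 2 and 1.14% in the other neutrophils. The fold changes were computed on depth-scaled values, per the file headers. The part of depth or mitochondrial share in either was not tested, and the share of cells with these transcripts in a cell type that lacks them was not analysed here.

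**Figure D2:**
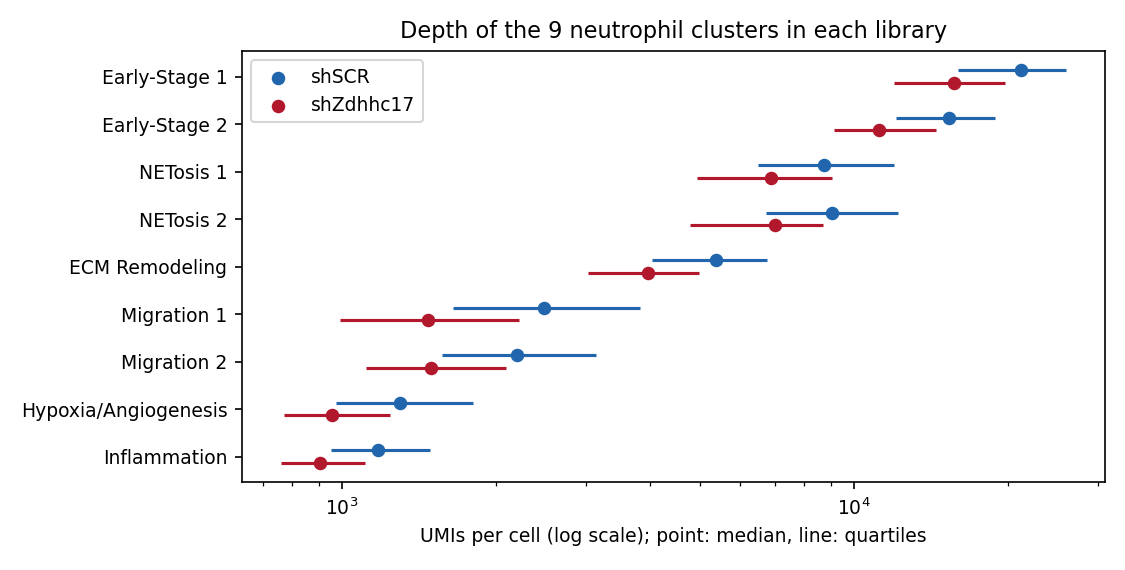
UMIs per cell (log axis) in the 9 neutrophil clusters of each library. Points are medians and lines run between the quartiles. Early-Stage 2 has the next highest medians after Early-Stage 1, 15315.5 in shSCR and 11186 in shZdhhc17.

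Most neutrophils listed with a transcript of these genes lay outside Early-Stage 2. The cluster held 659 of 10922 neutrophils, so a low share among the other 10263 still made up most cells with a transcript. From the shares in the authors' deposited table, weighted by these cell numbers, Mki67 was in 27.1% of all neutrophils, and 78.1% of the cells with it lay outside Early-Stage 2. Over the 8 genes this part ranged from 71.7% (Mcm5) to 81.2% (Smc4). Early-Stage 1 is 1 of the other clusters and the deepest, with 791 cells. Even if all of them had held Mki67, the share among the remaining 9472 neutrophils would be at least 16.1%. For the 8 genes this lower bound ranged from 7.66% (Mcm5) to 21.2% (Smc4). These neutrophils also include the NETosis clusters. The part of free RNA left after the authors' correction was not tested.

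The Early-Stage 2 cells were compared between the libraries, since 8 of the 94 genes mark them. They numbered 398 of 6594 neutrophils in shSCR (6.04%, exact 95% interval 5.47 to 6.64) and 261 of 4328 in shZdhhc17 (6.03%, 5.34 to 6.78), a ratio of 0.999 (0.859 to 1.16). No test was possible with a single library in each group, the intervals cover counting error only, and the spread between mice is unknown. The value depended on which cells were counted: the ratio was 0.697 (0.597 to 0.814) as a share of all cells of the library and 1.30 (1.12 to 1.51) among neutrophils with at least 1093 UMIs. NETosis 2, with Hmgb2 and Cenpf, held 6.16% of shSCR (5.59 to 6.76) and 8.25% of shZdhhc17 neutrophils (7.45 to 9.11). The ratio was 1.34 (1.17 to 1.54), with the same limits, and it was not computed for other choices of cells. It compares numbers of cells in the cluster and does not measure division.

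In the initial clustering of all cells, most of the Early-Stage 2 cells lay in 2 clusters that held few other neutrophils. Initial cluster 37 held 377 of the 659 Early-Stage 2 cells (57.2%), and these made up 91.3% of its 413 neutrophils. The other 36 of its neutrophils were Early-Stage 1. Initial cluster 96 held 233 (35.4%), or 94.0% of its 248 neutrophils, and the other 15 were NETosis 1. A further 40 lay in initial cluster 58, where NETosis 1 held 288 of 359 neutrophils. The Early-Stage 2 cells of initial clusters 37 and 96 had medians of 14626 and 12738 UMIs. Initial cluster 37 held 53.8% of the shSCR Early-Stage 2 cells (48.7 to 58.7) and 62.5% of the shZdhhc17 cells (56.3 to 68.3). Initial cluster 96 held 39.4% (34.6 to 44.4) and 29.1% (23.7 to 35.0). The exact intervals of the libraries overlapped for both, for initial cluster 96 only between 34.6 and 35.0. Such overlap does not show that the shares were equal, and the difference was not tested. The neutrophils of initial cluster 37 had medians of 17272.5 UMIs in shSCR and 12291 in shZdhhc17. Those of initial cluster 96 had 13464 and 10075. The part of depth in these shares was not tested.

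**Figure D3:**
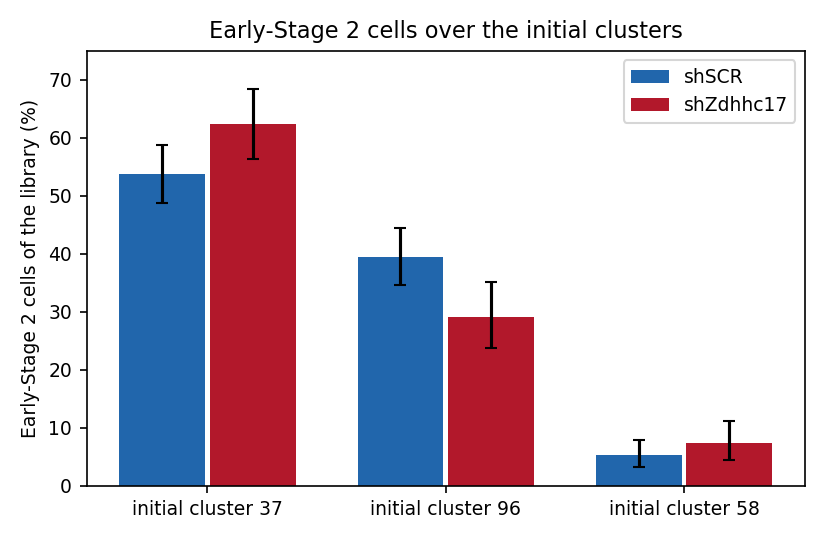
Percent of the Early-Stage 2 neutrophils of each library that lie in initial clusters 37, 96 and 58. Error bars are exact 95% intervals for counting error. The intervals of the 2 libraries overlap in each, which does not show that the shares are equal.

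The promoters of the 94 genes were searched as a property that the mark did not use. Of the 94 genes, 76 had a window in the RefSeq table, 8 of them with 2 windows, which gave 33 S phase and 51 G2 and M windows of 300 bases. CHR words were in 38 of the 51 G2 and M windows (74.5%) and in 6 of the 33 S phase windows (18.2%). They were in 19.2% of all 32851 windows of the table and in 16.3% of the 19029 windows of protein-coding genes in the full table. E2F words had the opposite order: they were in 12 of 33 S phase windows (36.4%) and 3 of 51 G2 and M windows (5.88%), against 2.26% of all windows and 3.03% of protein-coding windows. CCAAT boxes were common in both, in 22 of 33 (66.7%) and 38 of 51 (74.5%), against 37.4% and 37.7%. At least 2 boxes were in 45.5% of S phase and 56.9% of G2 and M windows, against 11.7% and 12.6%.

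Windows with both a CHR word and a CCAAT box numbered 31 of 51 for G2 and M (60.8%) and 4 of 33 for S phase (12.1%), against 7.52% of all windows and 6.60% of protein-coding windows. All but 3 of the 84 windows held at most 1 of the CHR and E2F motifs. The 3 with both were of Cdk1, the kinase that drives mitosis, Tmpo, a nuclear lamina protein gene, and Ncapd2 of condensin. Matches of different motifs overlapped in 1 window. The median GC content of the windows was 59.0% for S phase, 59.7% for G2 and M and 57.7% for protein-coding genes. The median number of CpG sites (C followed by G) differed more, at 21, 23 and 15. Each E2F word contains a CpG, and the windows were not matched for it. These are matches of short words. They are a description, and no binding was measured.

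**Figure D4:**
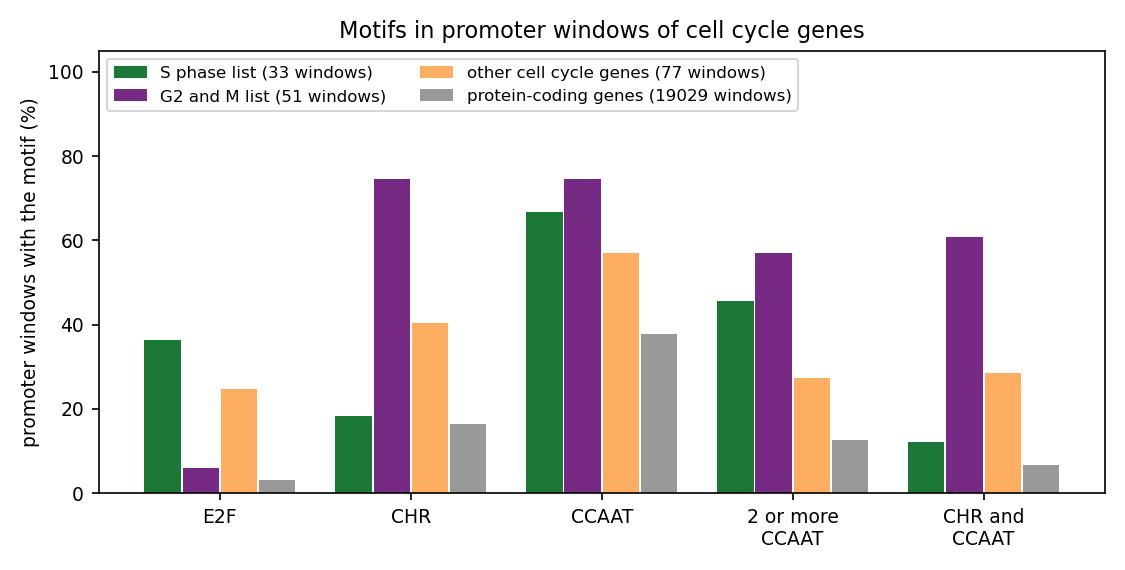
Percent of promoter windows with an E2F word, a CHR word, a CCAAT box, at least 2 CCAAT boxes, or both CHR and CCAAT, on either strand. CHR words are in 74.5% of the G2 and M windows and 18.2% of the S phase windows, and E2F words in 5.88% and 36.4%.

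Within the S phase list, E2F words were in 4 of 6 windows of helicase and origin genes (Mcm5, Mcm6, Cdc6, which loads the helicase, and Dtl, which directs the destruction of the licensing factor Cdt1). They were in 5 of 11 windows of the chromatin group, among them Uhrf1, which maintains DNA methylation, and Hells, a remodelling helicase. The polymerase group had 2 of 7 (Pola1 and Pold3), the repair and checkpoint group 1 of 5 (Clspn) and the nucleotide supply group 0 of 3. The 3 genes without an E2F word there were Rrm1, Rrm2 and Tyms. As with Birc5, this says only that these letters are not in the windows. Rrm2 had the largest fold change of the 3 S phase markers of Early-Stage 2, and a link between motif and level was not tested.

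Within the G2 and M list, all 8 windows of the cyclin, kinase and phosphatase group held a CCAAT box. Of these, 6 held a CHR word, among them those of Cdk1, Ccnb2 (a mitotic cyclin), Aurka, Ttk and Bub1. The phosphatase gene Cdc25c and the kinase gene Aurkb had no window. CHR words were in both windows of anaphase-promoting complex genes (Cdc20 and Ube2c), in 6 of 8 of chromosome structure, 6 of 8 of kinetochore and centromere, 4 of 5 kinesin and 8 of 12 spindle windows. The markers Top2a, Mki67, Ube2c, Hmgb2 and Cenpf held them, and Birc5 did not. Smc4 had no window in the table. Among the 80 unmarked cell cycle genes, a mixed list, 40.3% of 77 windows held CHR words and 24.7% E2F words.

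The CHR words of G2 and M genes lay mostly near the RefSeq start site. The last 40 bases of 64 of the 84 windows were found in a transcript of their gene. GENCODE starts differ for some genes, as given above for Ube2c and Hmgb2, so the positions hold for the RefSeq starts only. In the first 50 bases from the start, 19 of 51 windows (37.3%) had one, as in Aurka (32), Bub1 (14), Cdca8 (13) and Ttk (7), and 13 (25.5%) had one in the 50 bases before it, as in Cdk1 (-15) and Cdc20 (-18). In protein-coding genes these bins had 1.91% and 2.19%, and the bin farthest upstream 4.34%. CCAAT boxes lay further upstream: 56.9% of G2 and M windows had one in the 50 bases before the start and 7.84% in the 50 bases from it. From a CHR word to the nearest upstream CCAAT box the median was 29 bases between first bases over 37 such pairs (quartiles 24 and 43), and 53 (27 and 108) over 708 pairs of protein-coding genes. The pairs are not independent, since Ect2 and Psrc1 count the same pair in both of their windows. At least 2 boxes were in 56.9% of G2 and M and 12.6% of protein-coding windows. The spacing was not compared at equal numbers of boxes. E2F words of S phase genes were spread over the bins, with 0 to 12.1% of windows in each.

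**Figure D5:**
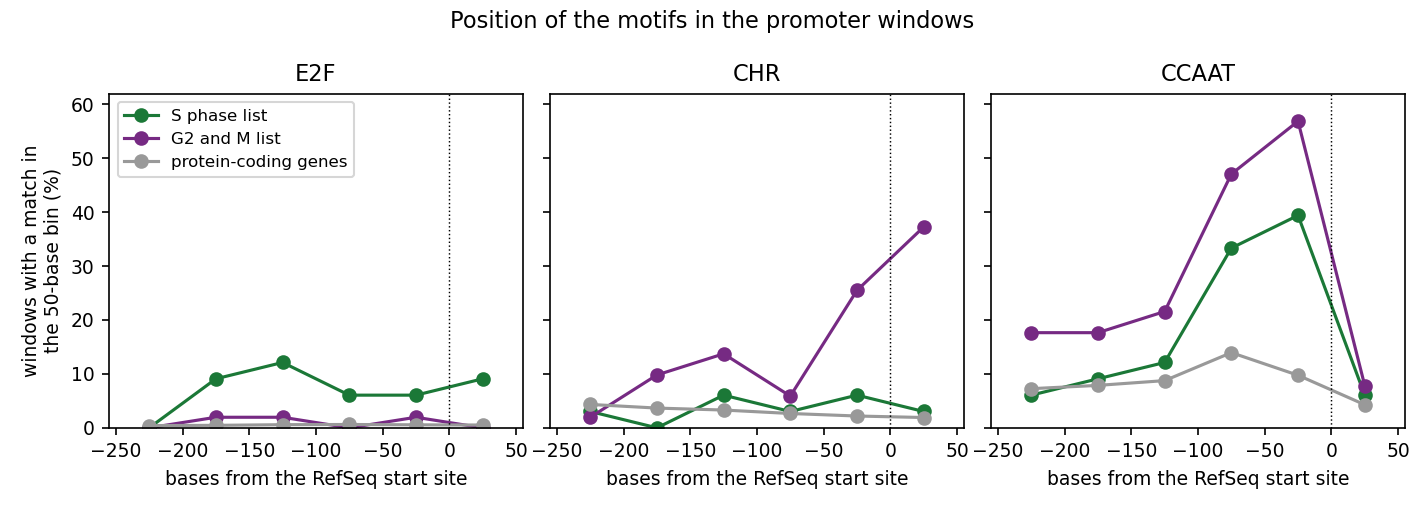
Percent of promoter windows with a match in each 50-base bin, by distance of the first base of the match from the RefSeq start site, for E2F, CHR and CCAAT. In the G2 and M list CHR is at 25.5% just before and 37.3% just after the start, and CCAAT at 56.9% just before it.

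In the genome the 94 genes are scattered over 20 chromosomes, with 12 on chromosome 2, 9 on chromosome 4 and 1 each on chromosome 18 and X. They span from 2543 bases (Tubb4b, a tubulin gene) to 327389 (Pola1, the primase-coupled polymerase), with a median of 23348 bases against 19770 for protein-coding genes of the full table. A protein-coding gene on the other strand starts head to head within 1000 bases for 14 of the 94 genes (14.9%), against 7.31% of 19866 protein-coding genes. Examples are Hjurp with Trpm8 (28 bases between starts), Wdr76 with Mfap1a (58), Cks1b with Shc1 (60), Dtl with Ints7 (92), Mcm4 with Prkdc (466) and Smc4 with Ift80 (168). None of the 14 partners carries the cell cycle mark.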

How the data were processed

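The cell tables hold whole-number counts per cell (UMIs and detected genes) after correction for ambient RNA, as the authors deposited them, with each cell's type and clusters. The percent of mitochondrial UMIs per cell is deposited beside them. The marker table holds the authors' log2 fold changes from Seurat's FindMarkers (Wilcoxon method on depth-scaled log2 values with unit pseudocount), the fraction of cells with the gene, printed here as percent, and a marker score, per the file headers. The version, Seurat 4.1.0, comes from the processing notes of the submitters, and symbols follow GRCm38 (mm10), per the file headers. The cells analysed had at least 500 UMIs each. The pipeline version and the tool for ambient RNA are stated in neither labels nor headers. Doublets were labelled by the authors and kept only in the denominator of all cells.

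The shares have exact (Clopper-Pearson) 95% intervals and the ratios log-normal ones, with scipy 1.17.1 in Python 3.11.15. The libraries' total UMIs were 214842365 (shSCR) and 172527305 (shZdhhc17). No test between groups was possible with 1 library each. Promoter windows are from RefSeq (GRCm38.p6), and gene positions from GENCODE M21, matched by symbol for all 94 genes. The last 40 bases of 64 of the 84 windows were found in a transcript of their gene, and the search was tested on simulated windows. The listed shares of all 20 Early-Stage 2 markers matched whole cells of the 659 within rounding.

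Genes named are the markers, the variable genes on the list, and examples of each role, the last chosen with their values seen. The members and lists were chosen with earlier results of these data known. A planned level per cell type was not computed here.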

Additional observations from a re-analysis of the deposited data

How the results depend on the processing

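The count of 10 of the 94 genes among the neutrophil markers was 9 with a log2 fold change of at least 1. The share of the 94 among variable genes was 0 in both tables. The Early-Stage 2 ratio of 0.999 was 0.697 with all cells as denominator, 1.30 with only neutrophils from the lower quartile of UMIs upward and 1.22 without the 5% of neutrophils with most UMIs. The limits of 1093 and 18753 UMIs remove different shares of the 2 libraries, which differ in depth. At mitochondrial percent at or below the median (1.33%) no Early-Stage 2 cell was left in either library. The share of G2 and M windows with a CHR word, 74.5%, was 37.3% in only the 150 bases before the start, which leaves out both the bases from the start on and those farther upstream. Protein-coding windows then had 7.64%. The G2 and M share was 60.8% with CHR and CCAAT together (protein-coding windows 6.60%) and 66.7% with TTTGAA alone (14.6%). The share of S phase windows with an E2F word, 36.4%, ranged from 21.2% (150 bases) to 48.5% (GGCGGGAA added). Protein-coding windows had 1.67% and 5.30% at these settings. The CCAAT share over all 84 windows, 71.4%, was 52.4% for at least 2 copies (protein-coding windows 12.6%). Added words, copies and counts per gene were chosen after seeing the data. No paired analysis was possible because each group has 1 library. Depth limits all shares of cells with a transcript.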
